A study of Arabidopsis thaliana with 21 samples.

Results

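The 7 genes described here make or control the Casparian strip, and they were taken by locus ID from a table of 32833 genes measured in 21 libraries of Arabidopsis thaliana seedlings. They are CASP1 (AT2G36100), CASP2 (AT3G11550), CASP4 (AT5G06200), CASP5 (AT5G15290), ESB1 (AT2G28670), PER64 (AT5G42180) and MYB36 (AT5G57620). RNA came from whole seedlings, 7 days old, grown in liquid 0.5x MS, a standard plant culture medium. Of the 7 groups, 3 were transgenic lines named for H89C (H89C4-7, H89C11-7 and H89C23-10), 3 were transgenic lines named for NEET (NEET10-10, NEET5-4 and NEET11-9) and the last was Col, the wild type. Each group had 3 libraries. Per the series title, H89C names a dominant-negative AtNEET (AT5G51720). AtNEET is a protein that carries an iron-sulfur cluster. The labels give no promoter, insertion site or number of plants for any line. They give no medium, age or tissue that differs between groups.

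The Casparian strip is a belt of lignin in the walls of the root endodermis that seals the space between cells, so that water and ions must cross a plasma membrane to reach the vessels. CASP proteins are small membrane proteins that gather in a belt and mark where the strip forms. They bring together the peroxidase PER64, which polymerizes lignin, and the dirigent protein ESB1, which is needed to place it. MYB36 is a transcription factor of the endodermis that switches on the CASP genes, PER64 and ESB1. In whole seedlings these root genes share the library with shoot RNA. Fewer endodermal cells in a seedling and less RNA in each of those cells cannot be told apart in such libraries.

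Values are normalized counts, the reads of a gene over a size factor that the authors set for each library. Col replicate 3 was shallow, with 8.24 mega (M) reads, and the other libraries held 17.88 to 24.68 M. Replicates were compared by a chi-square test of their reads, and each pair differed by more than sampling noise. The statistic per degree of freedom was 10.95 and 8.75 for the pairs that hold NEET10-10 replicate 1 and 14.82 and 8.1 for those that hold Col replicate 1. All other pairs lay between 1.41 and 2.76, so these 2 libraries stood apart from their groups. The labels do not say that the libraries of a group came from separate cultures, so p-values refer only to spread among the libraries at hand, part of which may be technical. Every comparison with Col uses the same 3 Col libraries. Calls are those with an adjusted p under 0.05 in a limma fit, made over the 20699 genes that reached a normalized count of 10 in 3 or more libraries.

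AtNEET itself checked the labels. Its normalized counts were 16710, 16520 and 15070 in H89C4-7, 2361, 2282 and 2499 in H89C11-7, and 1225, 1300 and 1373 in H89C23-10. They were 30640, 34000 and 33870 in NEET10-10, 18720, 18180 and 17670 in NEET5-4, and 330, 338 and 327 in NEET11-9, against 367, 186 and 230 in Col. All libraries of 5 lines lay above all of Col, while NEET11-9 lay within the range of Col. The limma fit still called AtNEET higher in NEET11-9, with a log2 change of 0.40 (SE 0.13, adjusted p = 0.0404). These counts do not tell the transgene from the gene of the plant itself.

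Of the 7 members, 6 passed the filter and ESB1 did not. The members differed widely in normalized count. Per kilobase of exon, the mean in Col was 853 for CASP1, 435 for PER64, 316 for CASP2, 135 for CASP5, 95.2 for CASP4, 87.4 for MYB36 and 4.63 for ESB1. In the TAIR10.1 assembly, CASP1 occupies 15159591 to 15160799 of chromosome 2 (minus strand) and PER64 16852628 to 16854224 of chromosome 5 (plus strand). CASP2 occupies 3638178 to 3639348 of chromosome 3 (plus strand). CASP4, CASP5 and MYB36 lie on the plus strand of chromosome 5, at 1877134 to 1878324, 4967011 to 4968092 and 23334767 to 23336632. ESB1 lies on the minus strand of chromosome 2, at 12300265 to 12302358. The coding sequences of these CASP genes were 61.7% identical between CASP2 and CASP5 at the least and 80.6% between CASP2 and CASP4 at the most. None of the exonic 31-base words of CASP1, CASP2, CASP4, CASP5, PER64 and MYB36 occurred elsewhere in the genome. Reads of that length that lie within 1 exon of these genes thus have 1 exact place in the reference. Words across exon junctions were not searched. For ESB1, 4.79% of its words occurred more than once in the genome.

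Transcripts of the Casparian strip were lower in H89C4-7 and H89C11-7 than in Col. All 6 tested members fell in H89C4-7, by 1.33-fold for CASP2 up to 2.06-fold for PER64. In H89C11-7, 5 were called lower, by 1.38-fold for CASP2 up to 2.42-fold for CASP5, and MYB36 was not called. In H89C23-10 none of the 6 was called. No member was called lower in a NEET line, where the lowest change was -0.21 for CASP4 in NEET5-4. CASP5 was called higher in NEET11-9. Over all tested genes, 33.0% were called lower in H89C4-7, 17.9% in H89C11-7 and 10.5% in H89C23-10. The 6 members had a median log2 change of -0.74 in H89C4-7, -0.71 in H89C11-7 and -0.17 in H89C23-10. Over all tested genes the median was -0.00, 0.00 and -0.00 in these lines. Without Col replicate 1, which stood apart, 6 members were called in H89C4-7 and 4 in H89C11-7, and without the shallow Col replicate 3 the counts were 6 and 5. Without H89C11-7 replicate 1, 3 members were called in H89C11-7, CASP1, CASP5 and PER64. NEET10-10 had no call with or without its replicate 1.

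CASP1, the most abundant member, held normalized counts of 556, 333 and 414 in H89C4-7, 425, 500 and 525 in H89C11-7, and 570, 882 and 674 in H89C23-10. Col held 700, 848 and 765. All libraries of H89C4-7 and H89C11-7 lay below all of Col, whereas H89C23-10 had 2 libraries below and 1 above all of Col. CASP1 fell by 0.85 on the log2 scale in H89C4-7 (SE 0.17, adjusted p = 6.88e-05) and by 0.67 in H89C11-7 (SE 0.17, adjusted p = 0.00216). In H89C23-10 the change was -0.14 (SE 0.17, adjusted p = 0.593). NEET libraries held 547, 924 and 778 in NEET10-10, 972, 885 and 801 in NEET5-4, and 823, 724 and 854 in NEET11-9, and no NEET line was called. The lowest of them was NEET10-10 replicate 1, a library that stood apart. Ordered by mean, the groups ran NEET5-4, NEET11-9, Col, NEET10-10, H89C23-10, H89C11-7 and H89C4-7. Neighbours in that order overlapped, except H89C23-10 and H89C11-7.

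**Figure D1:**
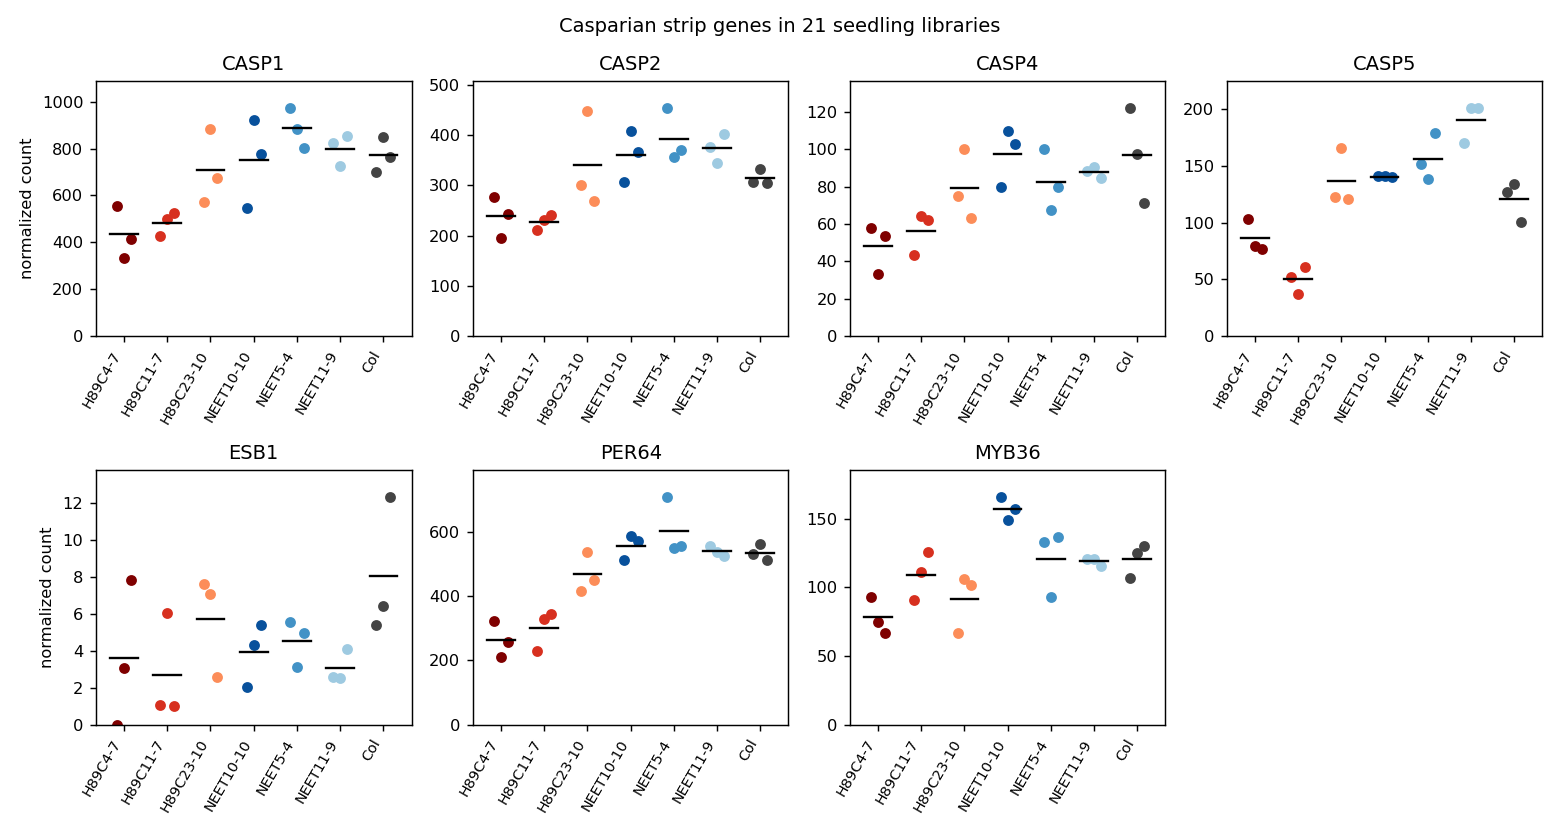
Normalized counts (y axis) of the 7 Casparian strip genes in each of the 21 libraries, by group on the x axis, with the mean of the 3 libraries of a group as a bar. The H89C4-7 and H89C11-7 libraries of CASP1 sit between 333 and 556, below the lowest Col library at 700, and ESB1 never passes 12.3.

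CASP2 and CASP4, the closest pair by coding sequence, were both lower in H89C4-7 and H89C11-7. CASP2 had normalized counts of 278, 196 and 244 in H89C4-7 and 211, 231 and 242 in H89C11-7, against 307, 333 and 304 in Col. All of these H89C libraries lay below Col. The log2 change was -0.41 in H89C4-7 (SE 0.14, adjusted p = 0.0157) and -0.46 in H89C11-7 (SE 0.14, adjusted p = 0.0132). The H89C4-7 call was lost without Col replicate 2 (adjusted p = 0.0527) or H89C4-7 replicate 2 (log2 change -0.27, adjusted p = 0.127), and the H89C11-7 call without its replicate 1 (adjusted p = 0.0592). CASP4 had 58.0, 33.3 and 53.4 in H89C4-7 and 43.2, 64.1 and 62.1 in H89C11-7, against 122, 97.5 and 71.1 in Col. Again no library of these lines reached Col. CASP4 changed by -0.99 in H89C4-7 (SE 0.22, adjusted p = 0.000322) and by -0.75 in H89C11-7 (SE 0.22, adjusted p = 0.00852). Without Col replicate 1, which stood apart, the H89C11-7 change was -0.57 (adjusted p = 0.0545), and without H89C11-7 replicate 1 it was -0.58 (adjusted p = 0.0665), so that call rests on both libraries.

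In the other lines neither gene was called. H89C23-10 held 301, 449 and 270 of CASP2, with a change of 0.08 (adjusted p = 0.749), and 75.0, 100.4 and 63.2 of CASP4, with a change of -0.27 (adjusted p = 0.411). For CASP2, NEET10-10 held 306, 408 and 367, NEET5-4 454, 356 and 370, and NEET11-9 377, 344 and 402. Of these 9 NEET libraries, 8 lay above all of Col. For CASP4, NEET10-10 held 79.6, 110 and 103, NEET5-4 100.4, 67.3 and 80, and NEET11-9 88.4, 90.4 and 84.8, most of them within the range of Col. Ordered by mean, CASP2 ran NEET5-4, NEET11-9, NEET10-10, H89C23-10, Col, H89C4-7 and H89C11-7, and the step from Col to H89C4-7 was the one without overlap. CASP4 ran NEET10-10, Col, NEET11-9, NEET5-4, H89C23-10, H89C11-7 and H89C4-7, and all neighbours overlapped.

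CASP5 was lowest in H89C11-7, where each library lay below each library of H89C4-7. It held normalized counts of 103, 79.8 and 76.8 in H89C4-7, 51.6, 37.0 and 61.0 in H89C11-7, and 123, 166 and 121 in H89C23-10. Col held 127, 134 and 101. Only H89C11-7, among the 3 H89C lines, lay wholly below Col. CASP5 fell 2.42-fold there (log2 change -1.27, SE 0.16, adjusted p = 1.08e-06) and 1.39-fold in H89C4-7 (log2 change -0.48, SE 0.16, adjusted p = 0.0131). The H89C4-7 call was lost without Col replicate 2 (adjusted p = 0.0618), H89C4-7 replicate 2 (adjusted p = 0.0501) or H89C4-7 replicate 3 (adjusted p = 0.0631). In the NEET lines CASP5 held 141, 141 and 140 in NEET10-10, 152, 139 and 179 in NEET5-4, and 170, 201 and 201 in NEET11-9. All 9 NEET libraries lay above all Col libraries, which 2.89% of tested genes did. It rose by 0.66 in NEET11-9 (SE 0.16, adjusted p = 0.00855), where 4.49% of genes were called higher. The change was 0.23 in NEET10-10 (SE 0.16, adjusted p = 0.301) and 0.38 in NEET5-4 (SE 0.16, adjusted p = 0.0842). No member was called in those lines. Of all tested genes, 15.6% were higher and 14.7% lower in NEET10-10, and 14.1% were higher and 16.9% lower in NEET5-4.

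PER64, the peroxidase that works at the strip, was lower in H89C4-7 and H89C11-7. Normalized counts were 321, 209 and 258 in H89C4-7, 229, 329 and 344 in H89C11-7, and 415, 536 and 450 in H89C23-10, against 530, 563 and 512 in Col. The libraries of H89C4-7 and H89C11-7 lay below all of Col, and H89C23-10 had 2 of its 3 libraries below all of Col. PER64 fell by 1.04 in H89C4-7 (SE 0.14, adjusted p = 2.77e-07) and by 0.85 in H89C11-7 (SE 0.14, adjusted p = 2.24e-05). The change was -0.20 in H89C23-10 (SE 0.14, adjusted p = 0.308). NEET libraries ranged over 513, 586 and 571 in NEET10-10, 708, 548 and 555 in NEET5-4, and 555, 537 and 525 in NEET11-9, with no call.

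MYB36, the transcription factor, was called lower in H89C4-7 alone. Normalized counts were 93.1, 74.7 and 66.7 in H89C4-7, 90.6, 111 and 126 in H89C11-7, and 66.6, 106 and 102 in H89C23-10, against 107, 125 and 130 in Col. H89C4-7 and H89C23-10 lay below all of Col, and H89C11-7 overlapped it. MYB36 fell by 0.63 in H89C4-7 (SE 0.17, adjusted p = 0.00203). The change was -0.15 in H89C11-7 (SE 0.17, adjusted p = 0.509) and -0.43 in H89C23-10 (SE 0.17, adjusted p = 0.0735). Without H89C23-10 replicate 2 the change in that line was -0.54 and was called (adjusted p = 0.0452). NEET10-10 held 166, 149 and 157, above all other libraries of the series, with a log2 change of 0.38 that was not called (SE 0.17, adjusted p = 0.0891). NEET5-4 held 133, 93.1 and 137 and NEET11-9 121, 121 and 116, both overlapping Col.

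**Figure D2:**
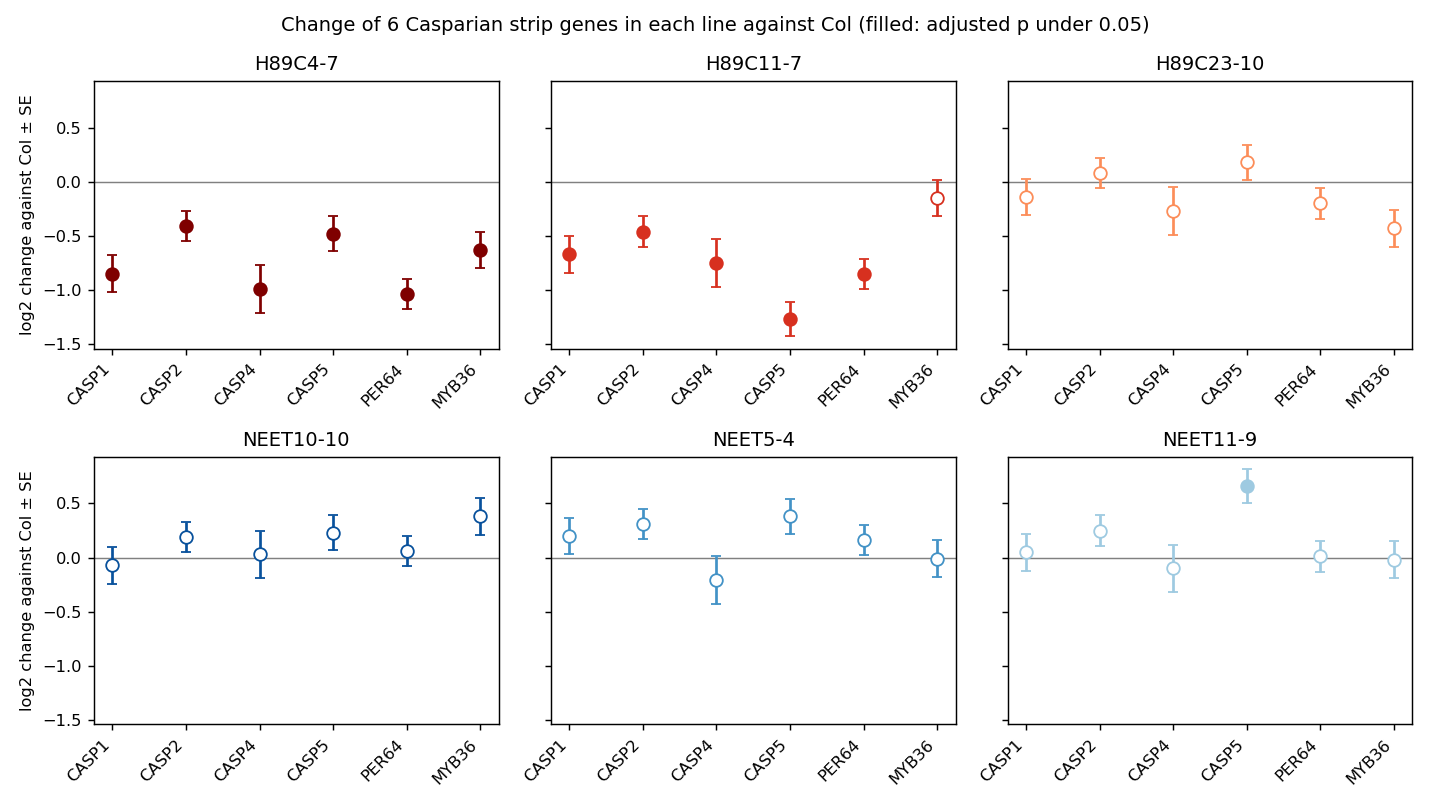
Log2 change against Col (y axis, with its SE) of the 6 tested Casparian strip genes (x axis) in each line, filled where the adjusted p was under 0.05. All 6 points are filled in H89C4-7, 5 in H89C11-7, none in H89C23-10, NEET10-10 and NEET5-4, and CASP5 alone in NEET11-9.

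Counted by overlap, 5 members had every H89C4-7 library below every Col library, all but CASP5, where 32.3% of tested genes did. In H89C11-7 5 members did, all but MYB36, where 21.2% of tested genes did. In H89C23-10 MYB36 alone did, against 16.8% of tested genes. Of the NEET lines, NEET10-10 had CASP5 and MYB36 above all of Col, and NEET5-4 and NEET11-9 had CASP2 and CASP5. The share of all tested genes above all of Col was 18.0% in NEET10-10, 18.5% in NEET5-4 and 13.1% in NEET11-9.

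ESB1 was too low for the filter and had no call. Its normalized counts were 0, 3.03 and 7.79 in H89C4-7, 1.05, 6.01 and 1.02 in H89C11-7, and 7.58, 7.04 and 2.56 in H89C23-10. They were 2.04, 4.30 and 5.36 in NEET10-10, 5.53, 3.10 and 4.94 in NEET5-4, and 2.57, 2.51 and 4.08 in NEET11-9, against 5.36, 6.43 and 12.3 in Col. In the fit with no filter on low values, its log2 change was -1.38 in H89C4-7 (SE 0.60, adjusted p = 0.0592) and -1.48 in H89C11-7 (SE 0.60, adjusted p = 0.0729). It lay between -1.10 and -0.45 in the other lines, and none was called. Only 93 reads were counted for it in all 21 libraries, at most 9 in 1 library. A gene on the opposite strand, AT2G28671, runs from 12300203 to 12302036, and its exons cover 84.3% of the exonic bases of ESB1. AT2G28671 itself held between 0 and 4.04. Low counts were common in this table among genes with such an overlap. Of 622 protein-coding genes with at least 80% of their exonic bases under exons of the opposite strand, 96.5% had a mean normalized count under 10, against 29.8% of 20770 protein-coding genes with no such overlap. The strand setting of the authors' counter is not given in the sources used here, and the part of the overlap in these low counts was not tested. With so few reads, the counts of ESB1 say little about its RNA. Overlaps with opposite-strand exons were small for CASP1 (5.4% of exonic bases), PER64 (2.8%) and CASP5 (0.4%), and CASP2, CASP4 and MYB36 had none.

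The 3 lines of the H89C construct differed from each other for all 6 tested members, as did 71.8% of all tested genes. An F test over the 3 line means gave adjusted p-values from 1.05e-07 for CASP5 to 0.0426 for MYB36. The MYB36 difference was lost without H89C11-7 replicate 2 (adjusted p = 0.104), H89C11-7 replicate 3 (adjusted p = 0.191), H89C4-7 replicate 2 (adjusted p = 0.0981) or H89C4-7 replicate 3 (adjusted p = 0.151), and with no filter on low values (adjusted p = 0.071). CASP2 was lost without H89C23-10 replicate 2 (adjusted p = 0.0784), and CASP4 without that library (adjusted p = 0.124) or H89C4-7 replicate 2 (adjusted p = 0.0629). Among the NEET lines no member differed, where 40.9% of tested genes did. CASP5 came nearest there with MYB36, at adjusted p-values of 0.0922 and 0.0849, and an unadjusted p under 0.05 for these 2. DESeq2 called CASP5 (adjusted p = 0.0286), and edgeR called CASP5 (adjusted p = 0.0245) and MYB36 (adjusted p = 0.0487).

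As the mean of the 3 H89C lines, 5 members were lower than in Col, where 23.8% of tested genes were. PER64 fell by 0.70 (SE 0.11, adjusted p = 1.21e-05). CASP4 fell by 0.67 (adjusted p = 0.00311), CASP1 by 0.56 (adjusted p = 0.00135), CASP5 by 0.52 (adjusted p = 0.00216) and MYB36 by 0.40 (adjusted p = 0.0178). CASP2 was at -0.26 (adjusted p = 0.065). These SE values leave out the spread between the lines. The mean joins lines that differ. CASP5 was at -0.15 (adjusted p = 0.331) without H89C11-7 and at -0.87 without H89C23-10, and MYB36 at -0.29 (adjusted p = 0.128) without H89C4-7. CASP2 reached -0.43 and was called (adjusted p = 0.00109) without H89C23-10. MYB36 lost its call, too, when Col replicate 2 (adjusted p = 0.0643) or the shallow Col replicate 3 (adjusted p = 0.0842) was left out.

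For the mean of the 3 NEET lines, CASP5 alone was called, higher by 0.42 (SE 0.13, adjusted p = 0.0209), where 12.3% of tested genes were called higher. It was not called without the shallow Col replicate 3 (log2 change 0.30, adjusted p = 0.158) or without NEET11-9 (log2 change 0.31, adjusted p = 0.127). NEET11-9 is the line in which AtNEET lay within the range of Col. The part of AtNEET in this change of CASP5 was not tested. The other 5 members lay between -0.09 for CASP4 and 0.25 for CASP2.

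Set against each other with the line as replicate, 3 H89C lines against 3 NEET lines, all 6 members had lower log2 levels in H89C, by 0.52 for CASP2 and MYB36 to 0.95 for CASP5. The mean of each H89C line lay below that of each NEET line for all 6, which held for 11.9% of tested genes. None was called, with an adjusted p of 0.438 for each. All 6 had an unadjusted p under 0.05, between 0.0103 for PER64 and 0.0349 for CASP5, as had 11.4% of tested genes. No gene of the whole table was called in this comparison (0.00%). NEET10-10 and NEET5-4 held more AtNEET than any H89C line, and no member was called in them against Col. The part of AtNEET, by level or form, in the lower values of the members was not tested.

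Ratios between members within a library do not depend on the size factor. They were chosen after the values were seen, and 24 comparisons of a line with Col were made over 4 ratios. With 3 libraries against 3, an exact two-sided permutation test cannot give a p below 0.1, and the smallest adjusted p over the 24 was 0.267. CASP5 over CASP1 averaged 0.203 ± 0.0313 in H89C4-7, 0.104 ± 0.026 in H89C11-7 and 0.195 ± 0.0186 in H89C23-10, against 0.157 ± 0.025 in Col (SD, n = 3 each). It lay above all Col libraries in H89C4-7 and below all of them in H89C11-7. It lay above all Col libraries in NEET11-9 too, at 0.240 ± 0.0359 (SD, n = 3). CASP4 over CASP2 was 0.199 ± 0.0258 in H89C4-7 and 0.209 ± 0.0173 in NEET5-4, both below all Col libraries, against 0.308 ± 0.0824 in Col (SD, n = 3 each). PER64 over MYB36 averaged 3.37 ± 0.539 in H89C4-7, 2.74 ± 0.221 in H89C11-7 and 5.24 ± 0.911 in H89C23-10, against 4.46 ± 0.50 in Col (SD, n = 3 each). H89C4-7 and H89C11-7 lay below all Col libraries in this ratio of the enzyme to its transcription factor. NEET10-10 lay there too, at 3.55 ± 0.431 (SD, n = 3), where MYB36 lay above all Col libraries. CASP1 over MYB36 was 4.45 ± 0.266 in H89C11-7, below all Col libraries, against 6.39 ± 0.456 in Col (SD, n = 3 each).

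**Figure D3:**
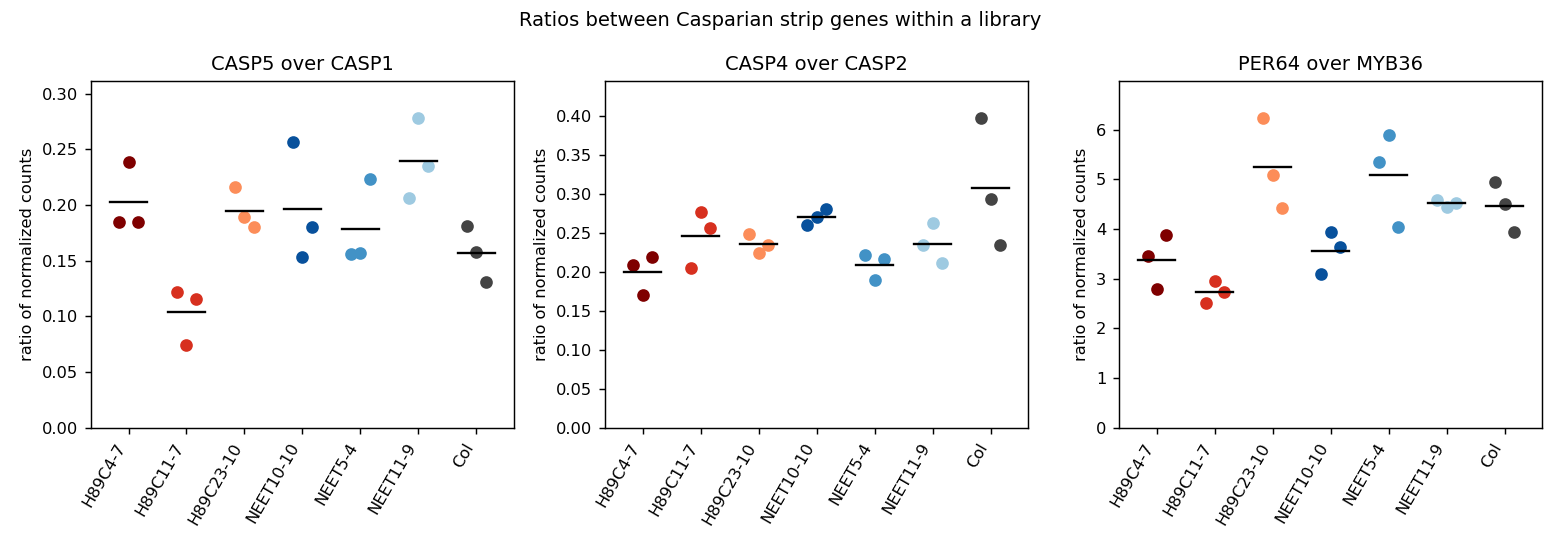
Ratios of normalized counts (y axis) between 2 members within each library, by group (x axis), with the mean of the 3 libraries of a group as a bar. CASP5 over CASP1 averages 0.203 in H89C4-7 and 0.104 in H89C11-7, on either side of 0.157 in Col.

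The members varied together across groups, with MYB36 and CASP5 least alike. Over the 15 pairs of tested members, Pearson's r of the 7 group means ran from 0.36 for CASP5 with MYB36 to 0.99 for CASP1 with PER64, with a median of 0.83. Deviations of the 21 libraries from their group means gave r from 0.25 for CASP4 with MYB36 to 0.86 for CASP1 with CASP2, with a median of 0.46. These describe libraries that share size factors and RNA of whole seedlings, and they carry no test.

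The sequences before the start of CASP1, CASP5, PER64 and MYB36 are shown to place the letters searched for in them. Those of CASP2, CASP4 and ESB1 were searched too and are not printed. The 250 bases before the annotated start of each gene were read from TAIR10.1, 5′ to 3′ on the strand of the gene. Capitals mark a match of ACCNAAC on the other strand, letters of a kind that MYB proteins of plants are known to bind, so that it reads as GTTTGGT here. CASP1 lies at chr2:15160800-15161049 (minus strand), CASP5 at chr5:4966761-4967010 (plus strand), PER64 at chr5:16852378-16852627 (plus strand) and MYB36 at chr5:23334517-23334766 (plus strand).
CASP1: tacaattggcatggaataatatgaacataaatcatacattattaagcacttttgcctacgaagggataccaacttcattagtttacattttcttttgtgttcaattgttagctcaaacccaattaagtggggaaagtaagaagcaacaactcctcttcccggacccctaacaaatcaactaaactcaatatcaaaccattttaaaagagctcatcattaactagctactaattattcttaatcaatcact
CASP5: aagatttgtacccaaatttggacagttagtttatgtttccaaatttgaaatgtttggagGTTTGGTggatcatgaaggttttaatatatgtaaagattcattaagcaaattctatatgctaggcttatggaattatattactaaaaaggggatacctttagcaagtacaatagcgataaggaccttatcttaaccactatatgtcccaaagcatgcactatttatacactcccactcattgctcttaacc
PER64: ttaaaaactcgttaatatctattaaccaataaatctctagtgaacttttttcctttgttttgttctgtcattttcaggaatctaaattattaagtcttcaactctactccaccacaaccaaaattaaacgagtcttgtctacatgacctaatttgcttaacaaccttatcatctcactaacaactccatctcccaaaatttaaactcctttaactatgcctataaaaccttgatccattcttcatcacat
MYB36: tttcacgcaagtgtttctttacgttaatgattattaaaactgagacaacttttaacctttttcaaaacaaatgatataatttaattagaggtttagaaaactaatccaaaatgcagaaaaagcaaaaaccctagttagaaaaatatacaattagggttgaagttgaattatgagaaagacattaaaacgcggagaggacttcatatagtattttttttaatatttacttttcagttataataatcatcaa

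Searched on both strands, ACCNAAC occurred in 2 of the 7 windows, those of CASP5 and ESB1, and in 14.5% of 27556 windows of that length before Arabidopsis genes. The match began 191 bases before the start of CASP5 and 111 before that of ESB1. ACCNACC occurred in none of the 7 and in 6.1% of all windows. TATAAA occurred in 4 of the 7, in CASP2, CASP5, ESB1 and PER64, and in 47.3% of all windows. CACGTG, the G-box, occurred in none of the 7 and in 6.5%. The windows of CASP1, CASP4 and MYB36 held none of these 4 motifs.

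Most genes of a list of wall enzymes and dirigent-like proteins fell with the members in H89C4-7, but LAC1 did not (log2 change 0.11, adjusted p = 0.626). This list of 14 peroxidases, laccases, a uclacyanin and dirigent-like proteins had 13 tested genes. Of these, 12 were lower in H89C4-7 and 8 in H89C11-7, and in H89C23-10 1 was lower and 2 were higher. The medians were -0.87, -0.41 and -0.06. For this list and those that follow, 33.0% of all tested genes were lower and 33.6% higher in H89C4-7. In H89C11-7 17.9% were lower and 19.8% higher, and in H89C23-10 10.5% were lower and 11.5% higher. PER72 (AT5G66390), a peroxidase, averaged 617 ± 134 in H89C4-7 and 759 ± 23.6 in H89C11-7, against 1173 ± 30.6 in Col (SD, n = 3 each), changes of -0.95 and -0.63. The peroxidase AT1G44970 changed by -1.70 in H89C4-7 and by -0.32 in H89C11-7. RCI3, another peroxidase, changed by -1.20 and -0.51, and UCC1, a uclacyanin, by -1.55 and -0.58 in these lines, all called. LAC1, a laccase, went the other way in H89C23-10, where it averaged 126 ± 37.1, against 55.2 ± 4.59 in Col (SD, n = 3 each; log2 change 1.14, adjusted p = 7.08e-05), and it was called higher in the mean of the NEET lines. LAC13, another laccase, was the other gene called higher in H89C23-10, at 0.45, and was called lower in H89C4-7, at -0.79, and in H89C11-7, at -0.39. The dirigent-like gene AT3G24020 was low everywhere, with 17.0 ± 7.37 in H89C4-7, against 30.6 ± 7.12 in Col (SD, n = 3 each). It was called lower in H89C4-7, at -0.87, in the mean of the H89C lines, at -0.64, and in that of the NEET lines, at -0.75, but in no single NEET line. AT1G07730, the untested gene of the list, was listed at 0 in all libraries.

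Regulators and receptors moved less. Of 12 genes, 7 were lower and 3 higher in H89C4-7, 2 were lower in H89C11-7 and none was called in H89C23-10, with medians of -0.27, 0.04 and -0.05. GSO1, the receptor kinase that surveys the closure of the strip, averaged 275 ± 18.0 in H89C4-7 and 323 ± 11 in H89C11-7, against 485 ± 9.57 in Col (SD, n = 3 each). It changed by -0.82 and -0.58 in these lines, and it was higher in the mean of the NEET lines, at 0.21 (adjusted p = 0.00896). JKD, a zinc finger protein, changed by -0.79 in H89C4-7, and by 0.09 in H89C11-7, which was not called. AT5G50150 behaved likewise, at -0.77 and 0.06, and the kinase AT1G61590 was called at -0.45 in H89C4-7. SCR, which specifies the endodermis together with SHR, was called higher in H89C4-7, at 0.41 and SHR lower, at -0.38. Neither was called in H89C11-7. Like RBOHF and AT4G34600 below, they were named after their values were seen. EXO70A1, an exocyst subunit that positions the CASP belt, was at 0.19 in H89C4-7 and -0.13 in H89C11-7, called in both. AT4G34600 was called at -0.35 in H89C4-7 and RBOHF at -0.19, a NADPH oxidase that supplies oxidant to the peroxidases.

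Suberin genes of the endodermis, which coat older endodermal cells with a waxy polymer, were lower as well. Of 14 tested genes of 15, 9 were lower and 1 higher in H89C4-7, 11 were lower in H89C11-7, and 1 was lower and 1 higher in H89C23-10, with medians of -0.65, -0.48 and 0.20. FAR1, a fatty acid reductase, averaged 210 ± 33.8 in H89C4-7, against 705 ± 71.2 in Col (SD, n = 3 each), a change of -1.75. FAR1 was called lower also in H89C11-7, at -0.35, in H89C23-10, at -0.43, in NEET10-10, at -0.62, and in NEET5-4, at -0.34. ABCG6, a transporter of suberin precursors, changed by -1.08 in H89C4-7 and by -0.74 in H89C11-7. CYP86B1, a hydroxylase of long fatty acids, changed by -0.99 and -0.76, and ASFT, which adds ferulate, by -0.60 and -0.76. ABCG20, another transporter, was higher in the mean of the NEET lines, at 0.32, where 4 suberin genes were higher and FAR1 alone was lower, at -0.38. Of all tested genes, 12.3% were higher and 13.3% lower in that mean.

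The CASP-like family, relatives of the CASP genes with no part in the rule, did not move as a body. Of 32 tested genes of 35, 14 were lower and 6 higher in H89C4-7, 7 lower and 5 higher in H89C11-7, and 2 lower and 2 higher in H89C23-10, with medians of -0.34, -0.08 and -0.03. Of all tested genes, 33.6% were higher in H89C4-7, 19.8% in H89C11-7 and 11.5% in H89C23-10. AT4G15610 rose most in H89C4-7, to 8265 ± 408, against 1776 ± 148 in Col (SD, n = 3 each), a change of 2.22, and was at 0.61 in H89C11-7 and 0.27 in H89C23-10, all called. Its neighbour in number AT4G15620 changed by -1.46 in H89C4-7 and by -0.21 in H89C11-7, which was not called. AT5G44550 changed by -1.48 and -0.54 and AT4G20390 by -0.89 and -0.68 in these lines. AT2G39518 was called at 1.5 in H89C4-7 and was lower in the mean of the NEET lines, at -0.73. AT1G79770, which the reference names CASP-like with the domain DUF1677, was at -1.0 in the mean of the NEET lines. It was called in NEET10-10, at -1.45, and in NEET5-4, at -1.39, and was at -0.15 in NEET11-9, not called.

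**Figure D4:**
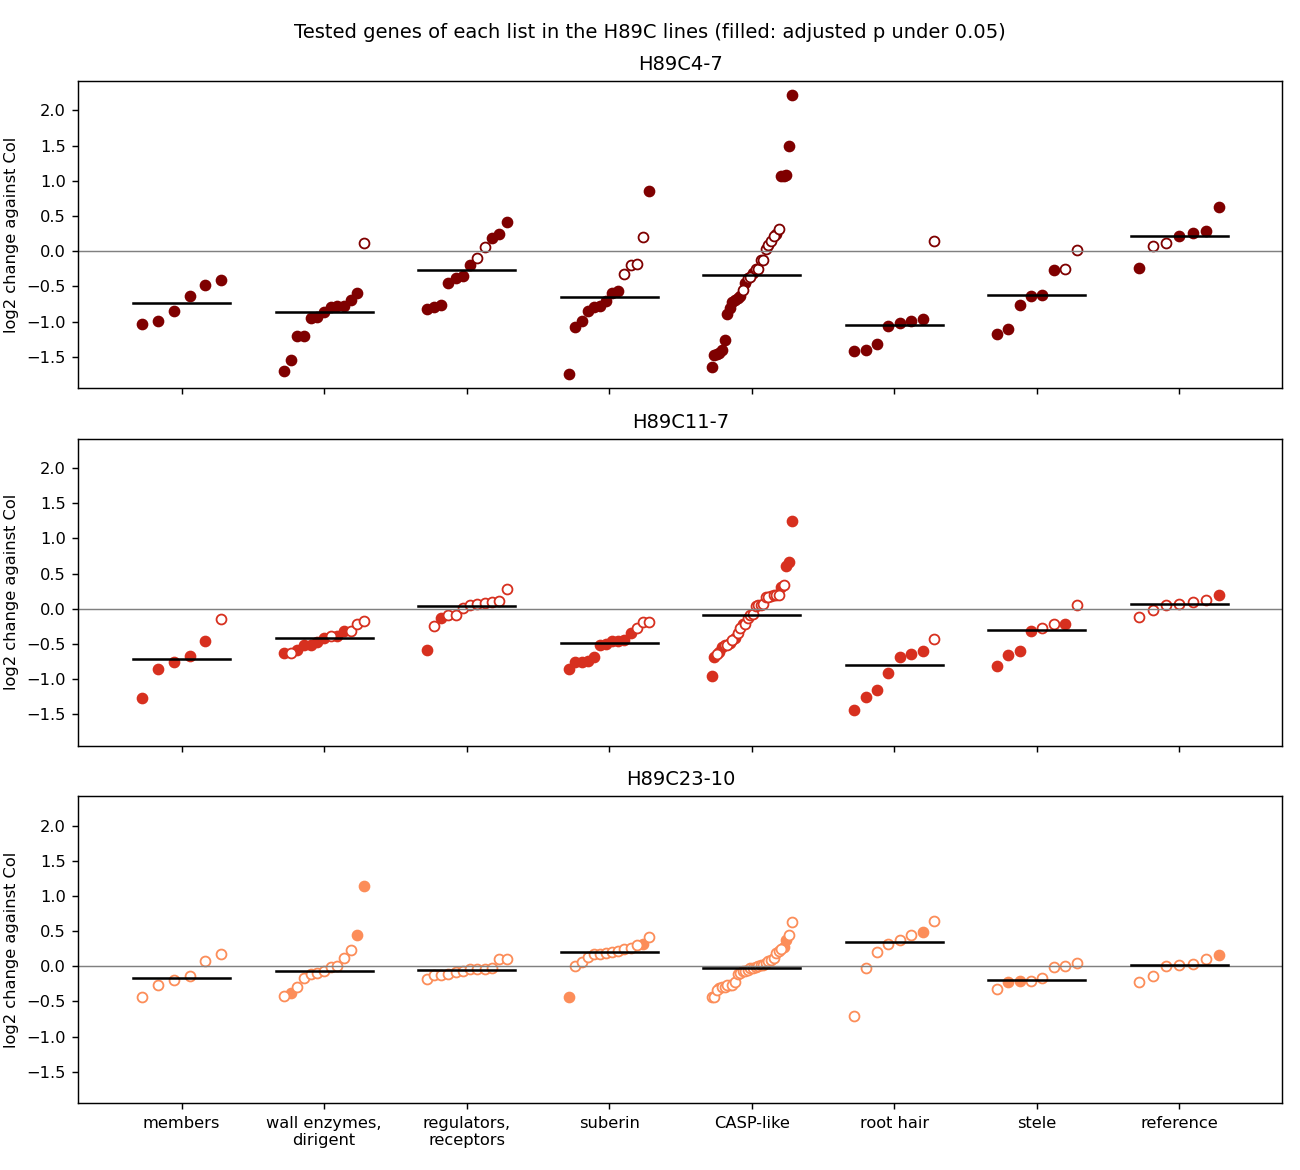
Log2 change against Col (y axis) of each tested gene in 8 lists (x axis) in the 3 H89C lines, filled where the adjusted p was under 0.05, with the list median as a bar. The member medians are -0.74 in H89C4-7, -0.71 in H89C11-7 and -0.17 in H89C23-10, and the CASP-like family spans both sides of 0.

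Most root hair and stele markers moved with the members in H89C4-7 and H89C11-7. SCR, the only endodermis marker listed beside the members, did not. It was called higher in H89C4-7, at 0.41, and was at 0.11 in H89C11-7, not called. Of 8 root hair genes, 7 were lower in H89C4-7 and 7 in H89C11-7, and 1 was higher in H89C23-10, with medians of -1.05, -0.80 and 0.35. Their summed normalized count ranged from 851.2 to 1141.4 in H89C4-7 and from 1052.9 to 1638.9 in H89C11-7, against 2118.2 to 2806.5 in Col. In H89C23-10 it ranged from 2495.2 to 4045.5. Of 8 stele genes, 6 were lower in H89C4-7, 5 in H89C11-7 and 2 in H89C23-10, and the sum was 4529.7 to 4762.6 in H89C4-7 and 5628.0 to 5739.7 in H89C11-7, against 6831.6 to 7376.8 in Col. The sum of the members themselves was 929.0 to 1409.2 in H89C4-7 and 1050.8 to 1361.3 in H89C11-7, against 1895.1 to 2108.1 in Col. No root hair or stele gene was at 0 in all libraries of a group. The part of these cells, or of a smaller share of root in the seedlings, in the change of the members was not tested.

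The lists of root cap, root meristem and cortex genes did not follow the members in H89C11-7. Of 6 tested root cap and root meristem genes, 1 was lower in H89C4-7 and 2 were higher in H89C11-7, with medians of -0.10 and 0.62. These genes were near the floor, so their changes are imprecise. Summed over the list of 7, they held 58.8 to 66.4 in Col and 84.1 to 115.0 in H89C11-7. Of 2 cortex genes, 1 was lower in H89C4-7, AT1G09750. None was called in H89C11-7, where the cortex median was 0.18. Leaf genes were lower as well. Of 6 leaf mesophyll genes, 4 were lower in H89C4-7, 4 in H89C11-7 and 3 in H89C23-10. In H89C4-7 1 was higher, and in H89C23-10 1. The leaf mesophyll medians were -0.52 in H89C4-7, -0.54 in H89C11-7 and -0.35 in H89C23-10. Among the NEET lines 5 of these genes were lower in NEET10-10, 3 in NEET5-4 and 2 in NEET11-9. Of all tested genes, 14.7% were lower in NEET10-10 and 16.9% in NEET5-4. The sum of the leaf mesophyll genes was 264739.7 to 307358.2 in NEET10-10, below all libraries of the H89C lines. It was 329748.7 to 357960.3 in H89C4-7 and 308691.7 to 332648.8 in H89C11-7, against 407061.8 to 458570.5 in Col. Of 7 genes often used as references, 4 were higher and 1 lower in H89C4-7, with a median of 0.21.

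**Figure D5:**
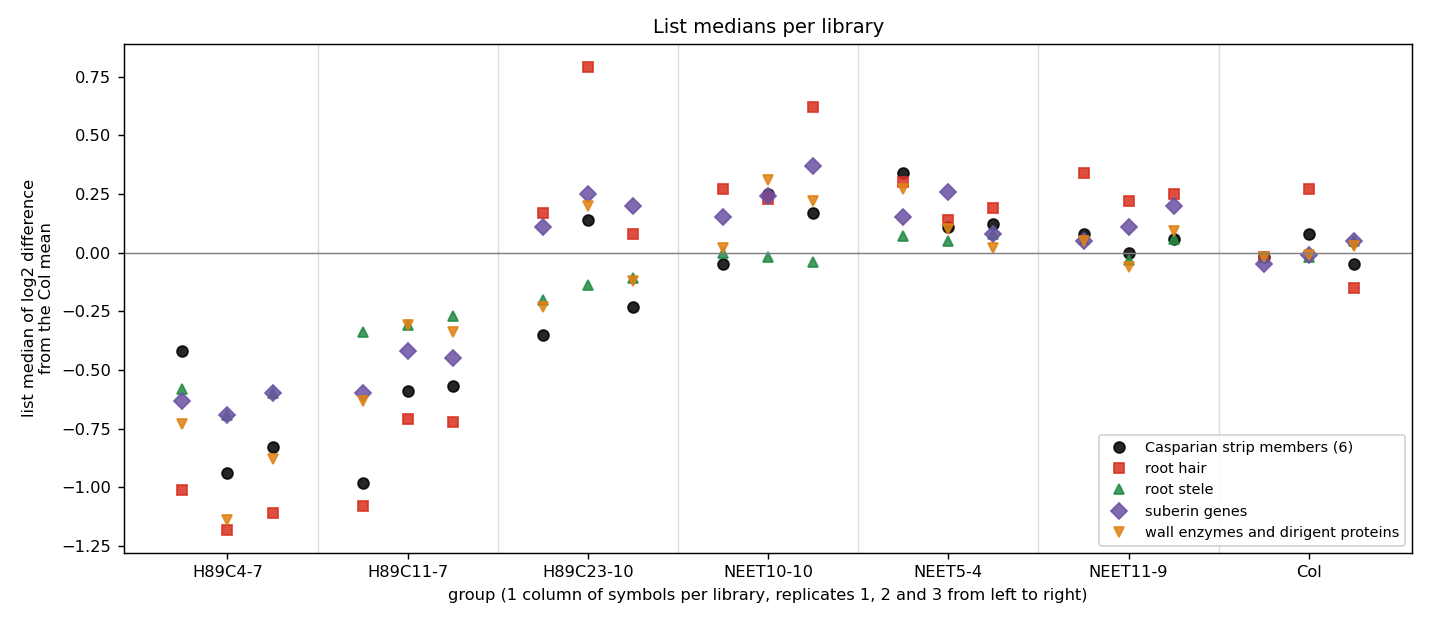
Median log2 difference from the Col mean (y axis) of the members and of 4 other lists, with 1 column of symbols per library by group (x axis). All 5 lists sit below 0 in every H89C4-7 and H89C11-7 library, and in H89C23-10 replicate 2 the members reach 0.14 and the root hair genes 0.79. The leaf mesophyll list, not drawn, was below 0 there too, at -0.45 to -0.56 in H89C4-7 and -0.49 to -0.58 in H89C11-7.

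Genes outside the set were ranked by how closely they followed the members. Among 18960 genes that are no members, likeness was Pearson's r over the 21 libraries with the mean centred profile of the 6 tested members. GXM2, a methyltransferase-like protein of glucuronoxylan, stood first with r = 0.946. The peroxidase PER72 and the aquaporin PIP2;4 followed at 0.945 each, and another peroxidase, AT5G15180, had 0.939. The pectin methylesterase inhibitor-like AT5G04960 and the dirigent-like AT3G55230 had 0.938 each, and XTH14, which remodels xyloglucan, 0.935. BST1, a DNAse I-like protein, had 0.933, the transporter of the major facilitator family AT2G16980 0.931, and UGT71C1, a glucosyl transferase, 0.930. AT5G04960 changed more than the members, by -2.29 in H89C4-7 and -1.87 in H89C11-7, and by -0.12 in H89C23-10. The median r was 0.88 for the root hair list, 0.83 for the wall list, 0.79 for the stele list and 0.79 for the suberin list. It was 0.46 for the leaf mesophyll list, 0.36 for the regulators, 0.26 for the 2 cortex genes, 0.16 for the CASP-like family and -0.44 for the reference genes, against -0.04 over all genes compared. The libraries share groups and size factors, so r describes them and carries no test.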

How the data were processed

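Per the labels' protocols, RNA was isolated with TRIzol and TruSeqHT libraries were made. The deposited table holds a normalized signal, in which the authors scaled each library's gene counts by its size factor. The submitters' processing notes name DESeq2 1.20.0, STAR 2.4.0.1, FastQC 0.11.7 and TAIR10. Which counter was run, whether it used strand and how it treated reads that fit several genes is not given in the sources used here. All 32833 genes and 21 libraries were read, with 0 columns left unused, and 100% of values became whole reads within 0.001. Names, coordinates and sequences came from RefSeq TAIR10.1, in which 32548 genes were found, and no protein sequence was used here.

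Genes were tested by limma-trend, in limma 3.58.1 under R 4.3.3, on log2(normalized count + 1), which understates changes of low genes, with 7 group means, 14 residual degrees of freedom and Benjamini-Hochberg adjustment over 20699 genes. H89C and NEET were compared on 6 line means. The fits of single lines against Col and the F test were checked on simulated data. There few genes changed, in 1 line, and all libraries had equal spread, unlike here. The comparison of H89C with NEET was not part of that check. Alternatives were a pseudocount of 5, no filter (26740 genes), TMM scaling, edgeR 4.0.16 and DESeq2 1.42.0 on recovered reads, a replicate block, fits of 2 groups, and leaving out each library or line. Python 3.11.15 made the summaries and figures. Genes named are the 7 members, AtNEET, of each other list of Casparian strip, suberin or CASP-like genes up to 4 genes with the smallest adjusted p in the mean of the H89C lines and up to 2 in that of the NEET lines, and the 10 genes most like the members with a mean of at least 20. SCR, SHR, RBOHF, AT4G34600, AT1G07730, LAC13 and the cortex gene AT1G09750 fall outside this rule and were named after their values were seen. A locus that the reference names as another protein was dropped from the regulators. Of the set, 1 further gene is not reported here. Members and lists were chosen with earlier results of these data known. The table was taken for normalized values when the tests were set, and the reads were recovered later. Total depth per library limits the precision of low members, at 29 reads for CASP4 in Col replicate 3.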

Additional observations from a re-analysis of the deposited data

Results flagged for a closer look

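The 3 H89C lines differed from each other in every tested member, by an F test over the line means in limma with Benjamini-Hochberg adjustment. The adjusted p was 0.00124 for CASP1, 0.00291 for CASP2, 0.0155 for CASP4, 1.05e-07 for CASP5, 1.55e-05 for PER64 and 0.0426 for MYB36. CASP1 averaged 434, 483 and 709 in H89C4-7, H89C11-7 and H89C23-10, against 771 in Col. CASP5 averaged 86.4, 49.9 and 137 in the same lines, against 120 in Col, so its lowest line was H89C11-7. MYB36 averaged 78.2, 109 and 91.3, against 121 in Col, and its highest line was H89C11-7. Of all tested genes, 71.8% differed among these lines. AtNEET averaged 16100 in H89C4-7, 2380 in H89C11-7 and 1299 in H89C23-10, against 261 in Col, and its part in the difference between the lines was not tested.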

How the results depend on the processing

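Pseudocount, filter, scaling, fits of 2 groups, edgeR and DESeq2 changed no count of members called in a line or in the mean of a construct against Col. Among the NEET lines 0 members differed, against 1 with DESeq2 and 2 with edgeR. For the mean of the NEET lines 1 member was called, and 0 without NEET11-9. The cause was not tested. Leaving out 1 library gave 4 to 6 members for H89C4-7, 3 to 5 for H89C11-7, 0 to 1 for H89C23-10 and 1 to 1 for NEET11-9. It gave 4 to 6 for the mean of the H89C lines, 0 to 1 for that of the NEET lines, 4 to 6 among the H89C lines, and 0 to 0 for NEET10-10, NEET5-4, H89C against NEET and among the NEET lines. Without Col replicate 1, which stood apart, H89C11-7 had 4, and without its own replicate 1 it had 3. Leaving out H89C11-7 or H89C4-7 gave 4 for the mean of the H89C lines, and leaving out H89C23-10 gave 6.

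The replicate block called 6 members in H89C4-7, 5 in H89C11-7 and 1 in NEET11-9, as without it, and changed no other count. Replicate numbers did not pair the libraries: deviations of 63 pairs with the same number correlated at -0.068 to 0.089 (median -0.006), and 6 of 21 libraries were closest to their own number. H89C against NEET has no paired analysis, since it uses line means.

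Single values that changed sign were not called to begin with. CASP4 in NEET10-10 gave -0.033 with DESeq2 and -0.052 with edgeR, MYB36 in NEET5-4 0.023 and 0.039, and MYB36 in NEET11-9 0.012 with edgeR. In the mean of the NEET lines, CASP1 was -0.007 without NEET5-4 and MYB36 -0.015 without NEET10-10. Leaving out 1 library gave CASP1 values of -0.31 to 0.004 in H89C23-10, -0.236 to 0.142 in NEET10-10, -0.013 to 0.125 in NEET11-9 and -0.006 to 0.133 in the NEET mean. CASP2 in H89C23-10 lay at -0.141 to 0.225. CASP4 lay at -0.171 to 0.212 in NEET10-10, -0.306 to 0.077 in NEET11-9 and -0.297 to 0.086 in the NEET mean. PER64 in NEET11-9 lay at -0.021 to 0.047, and MYB36 at -0.115 to 0.163 in NEET5-4 and -0.099 to 0.038 in NEET11-9. The median of all genes moved by at most 0.021 under another scaling. Depth limits ESB1, and CASP4, CASP5 and MYB36 at 29, 37 and 53 reads in their lowest libraries.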
